A study of Mus musculus with 4 samples.

Results

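The interferon regulatory factors are a family of transcription factors, and 8 of its genes (Irf1, Irf2, Irf3, Irf4, Irf5, Irf7, Irf8 and Irf9) were followed in cells washed from the airspaces of bleomycin-administered mice. The members were found by the accession that the array design gives to each probe, paired with a RefSeq symbol, which gave 9 probes of 8 genes among 39429 non-control probes and 20832 named genes. Irf1 had 2 probes and each other gene had 1. The study asked how loss of S1pr2, a receptor for sphingosine-1-phosphate, bears on the response of the lung to repeated bleomycin. RNA of bronchoalveolar lavage fluid (BALF) cells, labelled by the submitters as alveolar macrophages, was hybridized to 4 one-color arrays, with 2 arrays for each of the wild-type and S1pr2-/- genotypes. Both genotypes had received intraperitoneal bleomycin at 0.035 U/g, 2 injections a week, and the samples were taken on day 22, so bleomycin is shared by all arrays and no saline array is compared here. The mice were young adults, and the controls were wild-type littermates of S1pr2-null mice on a mixed background that includes C57BL/6J. Whether an array held cells of 1 mouse or of several is not given in the sources used here, so p-values measure only the spread between these samples.

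Interferon regulatory factors share a DNA-binding domain that reads the GAAA repeats of interferon-stimulated genes, and they carry signals from pattern-recognition receptors and from interferon receptors to those genes. Irf3 and Irf7 wait in the cytoplasm until kinases below such receptors phosphorylate them, and they then switch on type I interferon genes. Irf9 is the DNA-binding part of the complex ISGF3, which also holds Stat2 and answers type I interferon. Irf4, Irf5 and Irf8 are best known in macrophages and dendritic cells, where Irf5 is tied to classical (M1) activation, Irf4 to alternative (M2) activation by IL-4 and IL-13, and Irf8 to the making of mononuclear phagocytes.

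Every value below is log2 of a probe's processed signal over the 75th percentile of its array, and every difference is S1pr2-/- minus wild-type on that scale. Probes differ in how strongly they bind, so a value is read only against the same probe on the other arrays. The 75th percentiles lay between 2489 and 2817 intensity units, and 67.6% to 72.2% of probes were well above background on an array. The probe of S1pr2 itself read -0.13 and -0.16 in wild-type but 2.67 and 2.54 under the label S1pr2-/-, so it was 6.72-fold higher on the latter (limma, adjusted p = 0.333), against their labels. Whether that probe lies inside the disrupted part of the gene is not given in the sources used here, and all directions below follow the labels. The marker genes of alveolar macrophages were all measured, 16 of 16, and their summed signal over the 75th percentile was 1110 and 1190 in wild-type and 1090 and 1180 in the arrays labelled S1pr2-/-.

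No member differed between the genotypes at an adjusted p under 0.05. limma with Benjamini-Hochberg adjustment over all 27161 probes tested called 0 of the 9 member probes, and it called 0% of all probes. All 9 probes entered the test, and 8 of them were well above background on all 4 arrays. On both arrays labelled S1pr2-/-, 5 member probes (Irf1, Irf2, Irf4, Irf7 and Irf9) lay below both wild-type arrays, as did 21.8% of all probes tested. A single probe, that of Irf5, lay above both wild-type arrays, as did 20% of all probes, and the other 3 overlapped between the genotypes. At an unadjusted p under 0.05, 2 member probes were lower (Irf1 and Irf9, limma) and 0 were higher, beside 5.59% and 3.99% of all probes. The median difference of the 9 probes was -0.08, beside -0.00298 over all probes tested. The 9 include the second Irf1 probe, which was at the floor on 2 arrays and entered the test only through the S1pr2-/- arrays. The split over all probes depended on the scaling: 1518 were lower and 1083 higher as given here, 1026 and 1752 under quantile normalization, 1430 and 1664 with the percentile taken over probes detected on all arrays, and 1673 and 763 after normexp background correction.

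**Figure D1:**
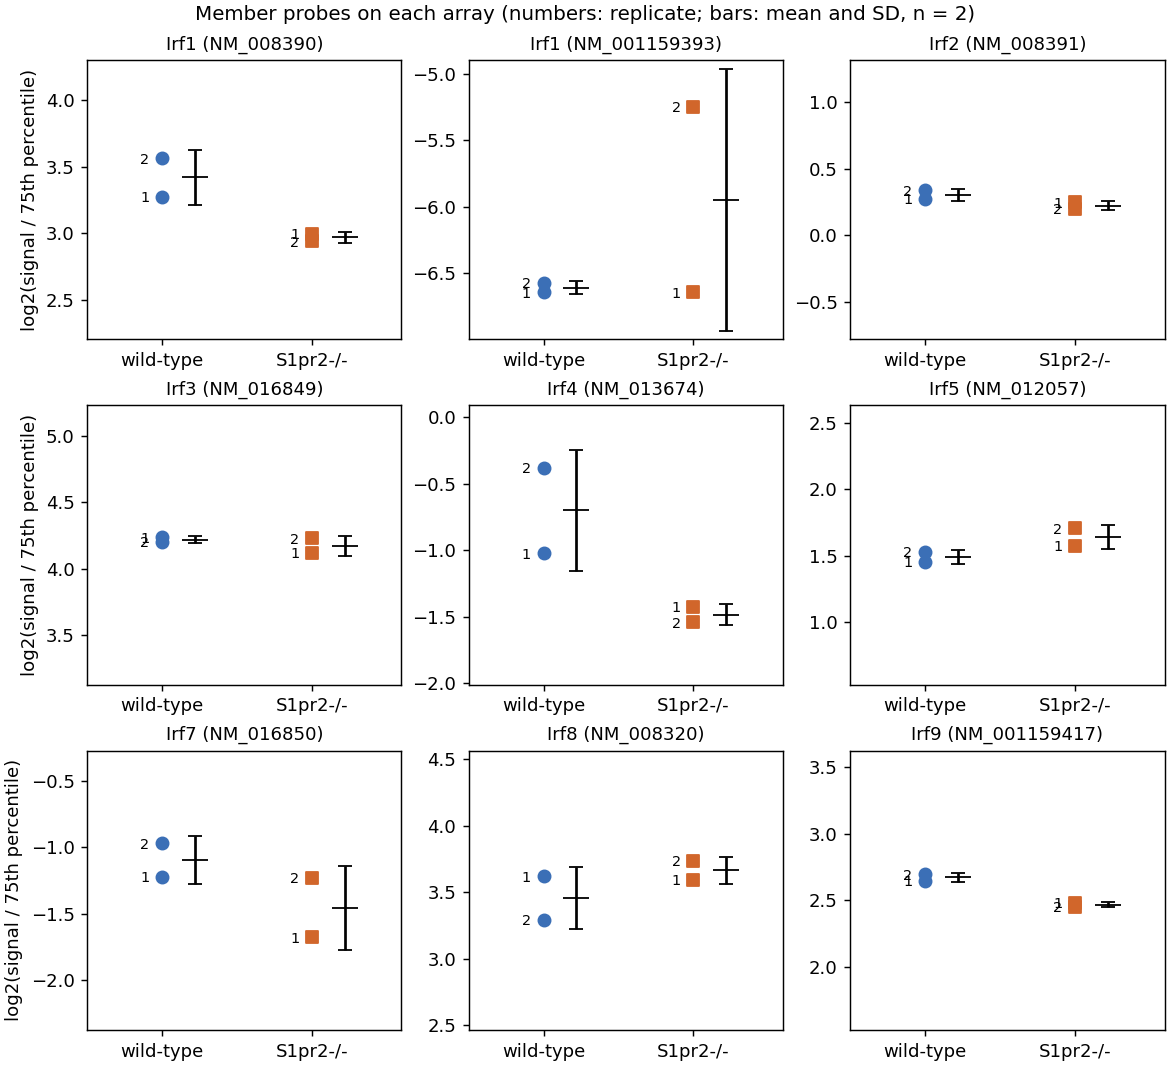
Each panel plots a member probe: the vertical axis is log2 of the signal over the array's 75th percentile, points are arrays (circles wild-type, squares S1pr2-/-, numbered by replicate), and bars are the mean and SD of 2 arrays. All panels span the same height, and the Irf4, Irf9 and NM_008390 Irf1 points of S1pr2-/- lie below those of wild-type, whereas those of Irf3 and Irf8 overlap.

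The lowest difference of the family was that of Irf4. Irf4 pairs with PU.1 or with Batf and Jun proteins on DNA and acts in macrophages below IL-4 and IL-13, in dendritic cells, and in activated B and T cells. Its probe (NM_013674) read -1.02 and -0.38 in wild-type and -1.43 and -1.54 on those labelled S1pr2-/-. The gap between replicates was 0.64 in wild-type and 0.11 in S1pr2-/-, and the lower wild-type array was nearer to the S1pr2-/- arrays than to its own partner. The means were -0.70 ± 0.45 (SD, n = 2) and -1.49 ± 0.08 (SD, n = 2). The difference was -0.78 with a standard error of 0.26 and a 95% interval of -1.57 to 0.01, that is 1.72-fold lower (limma, adjusted p = 0.521). Of all probes tested, 1.98% had a lower difference. The size rested on the wild-type arrays, since it was -0.46 without wild-type replicate 2 and -1.10 without wild-type replicate 1. The alternatives of scaling, background and test gave -0.79 to -0.75. An exact two-sided permutation test over the 4 arrays could not go below p = 0.333 for any probe.

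Dendritic cells and activated B and T cells also carry Irf4, so their markers are given beside it, with those of eosinophils and plasma cells. Which of the cells on these arrays carried Irf4 was not measured. Over all 15432 genes, at 1 probe each, 21.9% lay below wild-type on both arrays labelled S1pr2-/- and 22.1% above. Of 12 T cell markers, 7 were lower on both arrays labelled S1pr2-/-, 0 higher, and their median difference was -0.43. Their summed signal was 22.9 and 25.3 in wild-type and 20.3 and 14.6 in S1pr2-/-. Those of B cells summed to 2.16 and 0.852 in wild-type and to 0.995 and 0.731 in S1pr2-/-, and those of dendritic cells to 68.9 and 65.7 against 56.5 and 57.5. The eosinophil markers were lower on both arrays in 7 of 7 cases, with a median difference of -4.52. Their sum of 41 and 47.9 against 33.3 and 36.7 is mostly Siglecf, which marks alveolar macrophages too and differed by -0.15. The other 6 (Epx, Prg2, Ccr3, Il5ra, Gata1 and Alox15) summed to 2.82 and 9.05 in wild-type and to 0.133 and 0.243 in S1pr2-/-, were 13.3- to 48-fold lower there, and were all highest on wild-type replicate 2, as Irf4 was. Of 6 tested plasma cell markers, 1 was lower on both arrays and 2 were higher, from Pou2af1 at -1.15 to Jchain at 2.13. The plasma cell markers had a median difference of -0.27. They summed to 1.79 and 1.28 in wild-type and to 1.45 and 1.3 in S1pr2-/-. All markers of these 5 lists were well above background on at least 1 array, except Tnfrsf17 of the plasma cell list. The part of these cell types in the Irf4 difference was not tested. In RNA of mixed cells, fewer cells of a type cannot be told apart from less RNA per cell.

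Irf8 is needed for monocytes, macrophages and conventional dendritic cells to form, and it too binds DNA beside PU.1. Its probe (NM_008320) read 3.62 and 3.29 in wild-type and 3.60 and 3.74 in S1pr2-/-. The groups overlapped, with wild-type replicate 1 above S1pr2-/- replicate 1. The difference was 0.21 with a standard error of 0.15 (limma, adjusted p = 0.671), a 95% interval of -0.24 to 0.66, and it was 0.04 without wild-type replicate 2. Irf4 and Irf8, which share partners, had differences of opposite sign, and the contrast between them was not tested.

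The stretch of 250 bases before the start of these genes (RefSeq, assembly GRCm38.p6) was searched on both strands for 4 short patterns, because members are themselves under control of interferon and of NF-kB. Capitals mark the matches, whose positions are counted from their first base to the gene's start, and no matches overlapped. The interferon pattern GAAANNGAA was found in 7.13% of 32841 promoters, the gamma-interferon type TTCNNNGAA in 7.02%, the Stat6 type TTCNNNNGAA in 5.85% and the NF-kB consensus in 7.25%. Of 11 windows of the 8 genes, GAAANNGAA was in 1 (Irf2), TTCNNNGAA in 3 (Irf1, Irf2 and Irf8), TTCNNNNGAA in 0 and the NF-kB consensus in 2 (Irf1 and Irf2). The Irf4 window and the first Irf8 window are shown for the contrast between these related genes. That of Irf4 held no match, and the first of Irf8 held the TTCNNNGAA type at 171 and 153 bases before the start. The second Irf8 window, from another annotated start, held no match, as that of Irf4 did.
Irf4 (GRCm38.p6, chr13:30748983-30749232, plus strand): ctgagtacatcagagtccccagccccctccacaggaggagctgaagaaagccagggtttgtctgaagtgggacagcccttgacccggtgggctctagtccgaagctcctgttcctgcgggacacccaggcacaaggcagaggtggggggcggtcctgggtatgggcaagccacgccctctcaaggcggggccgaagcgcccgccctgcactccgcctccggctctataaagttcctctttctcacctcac
Irf8 (GRCm38.p6, chr8:120736108-120736357, plus strand): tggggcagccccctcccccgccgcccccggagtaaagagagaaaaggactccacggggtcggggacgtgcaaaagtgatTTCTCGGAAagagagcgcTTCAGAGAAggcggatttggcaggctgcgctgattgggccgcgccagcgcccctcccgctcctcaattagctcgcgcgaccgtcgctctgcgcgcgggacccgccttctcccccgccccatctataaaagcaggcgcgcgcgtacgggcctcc

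Irf1 and Irf2 bind the same sites, Irf1 as an activator induced by interferon gamma and Irf2 mostly as its antagonist. The brighter Irf1 probe (NM_008390) read 3.27 and 3.56 in wild-type and 2.99 and 2.94 in S1pr2-/-. Both arrays labelled S1pr2-/- were below both wild-type arrays, and the means were 3.42 ± 0.21 (SD, n = 2) and 2.97 ± 0.04 (SD, n = 2). The difference was -0.45 with a standard error of 0.13 and a 95% interval of -0.84 to -0.06 (limma, adjusted p = 0.515). It lay between -0.60 and -0.31 with 1 array left out, the latter without wild-type replicate 2. Of all probes tested, 5.75% had a lower difference.

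The second Irf1 probe (NM_001159393) was close to the limit of detection. It was at the floor of -6.64 on wild-type replicate 1 and S1pr2-/- replicate 1, read -6.57 on wild-type replicate 2 and -5.25 on S1pr2-/- replicate 2, and was well above background on 1 of 2 wild-type arrays and on both others. Its difference of 0.66 (limma, adjusted p = 0.70) came from S1pr2-/- replicate 2 and was -0.04 without it. It entered the test only through the S1pr2-/- arrays, and no direction for Irf1 is read from it.

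Irf2 had a small difference. Its probe (NM_008391) read 0.27 and 0.34 in wild-type and 0.25 and 0.20 in S1pr2-/-, so the groups did not overlap but lay close together. The difference was -0.08 with a standard error of 0.06 (limma, adjusted p = 0.684) and a 95% interval of -0.27 to 0.11. The second Irf1 window held no match. In the first Irf1 window the TTCNNNGAA type lay 90 bases and the NF-kB consensus 13 bases before the start. In the Irf2 window the interferon pattern lay 241, the TTCNNNGAA type 224 and the NF-kB consensus 17 bases before it. The first Irf1 window and the Irf2 window are shown because they hold 5 of the 7 matches of the family. Binding of any factor at these matches was not tested.
Irf1 (GRCm38.p6, chr11:53769764-53770013, plus strand): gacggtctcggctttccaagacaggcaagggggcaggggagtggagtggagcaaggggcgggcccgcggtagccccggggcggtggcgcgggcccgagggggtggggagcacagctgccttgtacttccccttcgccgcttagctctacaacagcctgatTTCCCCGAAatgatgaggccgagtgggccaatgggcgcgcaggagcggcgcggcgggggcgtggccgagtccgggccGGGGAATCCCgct
Irf2 (GRCm38.p6, chr8:46739495-46739744, plus strand): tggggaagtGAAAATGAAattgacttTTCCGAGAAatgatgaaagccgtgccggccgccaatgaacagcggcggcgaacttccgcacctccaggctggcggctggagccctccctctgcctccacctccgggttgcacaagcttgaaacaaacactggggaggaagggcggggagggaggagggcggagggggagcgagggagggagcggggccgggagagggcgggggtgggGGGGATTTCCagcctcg

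Irf3, Irf5 and Irf7 are held inactive until receptors for microbial nucleic acids or lipopolysaccharide signal. Irf3, present in most cells without induction, had a probe (NM_016849) that read 4.24 and 4.20 in wild-type and 4.12 and 4.23 in S1pr2-/-. The groups overlapped, the difference was -0.05 with an interval of -0.26 to 0.16 (limma, adjusted p = 0.827), and it was 0.01 without S1pr2-/- replicate 1. Irf7, which is induced by interferon and amplifies it, read -1.22 and -0.97 in wild-type and -1.68 and -1.23 in S1pr2-/- (NM_016850). The higher S1pr2-/- array and the lower wild-type array were nearly level. The difference was -0.36 with a standard error of 0.21 (limma, adjusted p = 0.623), and it was -0.13 without S1pr2-/- replicate 1 and -0.58 without S1pr2-/- replicate 2. Of all probes tested, 8.1% had a lower difference.

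Irf5, which drives inflammatory cytokine genes such as Il6 and Il12b, was the only member above wild-type on both arrays labelled S1pr2-/-. Its probe (NM_012057) read 1.45 and 1.53 in wild-type and 1.58 and 1.70 in S1pr2-/-. The difference was 0.15 with a standard error of 0.08 and an interval of -0.09 to 0.39 (limma, adjusted p = 0.60), and it was between 0.08 and 0.21 with 1 array left out.

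Irf9 had closely spaced replicates. Its probe (NM_001159417) read 2.65 and 2.70 in wild-type and 2.48 and 2.45 in S1pr2-/-, a replicate gap of 0.05 in wild-type and 0.03 in S1pr2-/-. The difference was -0.21 with a standard error of 0.06 and an interval of -0.38 to -0.03 (limma, adjusted p = 0.515), and it was -0.23 to -0.18 with 1 array left out. The effect was small, 1.15-fold, and 16.3% of all probes tested had a lower difference.

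**Figure D2:**
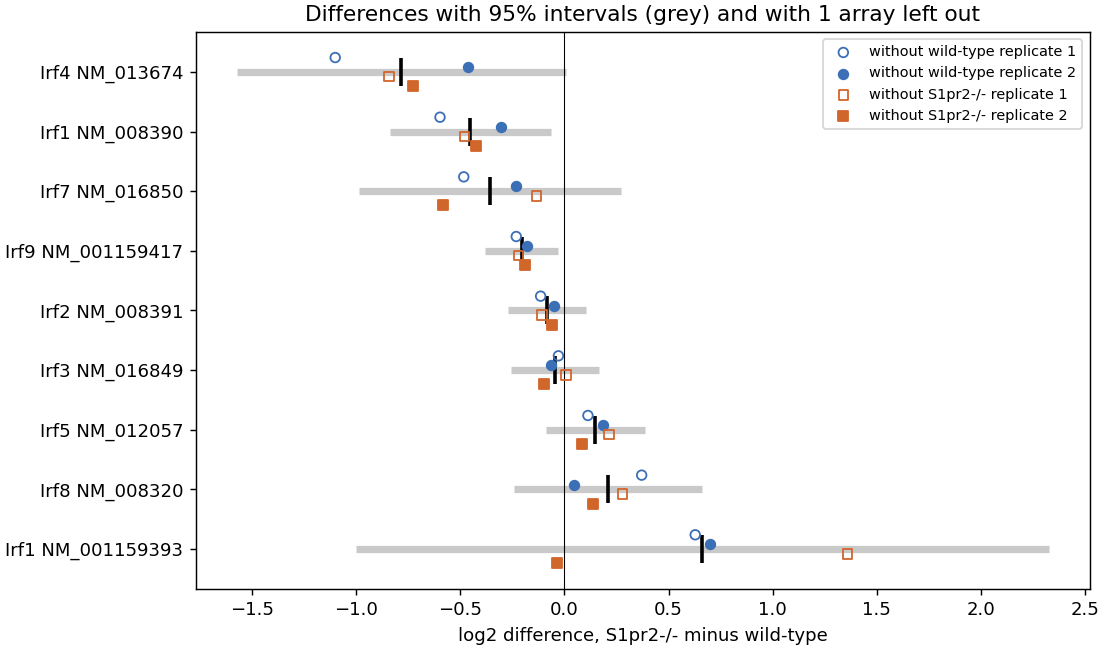
The horizontal axis is the log2 difference, S1pr2-/- minus wild-type. Black ticks are the differences, grey bars their 95% intervals from limma, and symbols the difference with 1 array left out. Leaving out wild-type replicate 2 brought Irf4 from -0.78 to -0.46, while Irf9 stayed between -0.23 and -0.18.

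**Figure D3:**
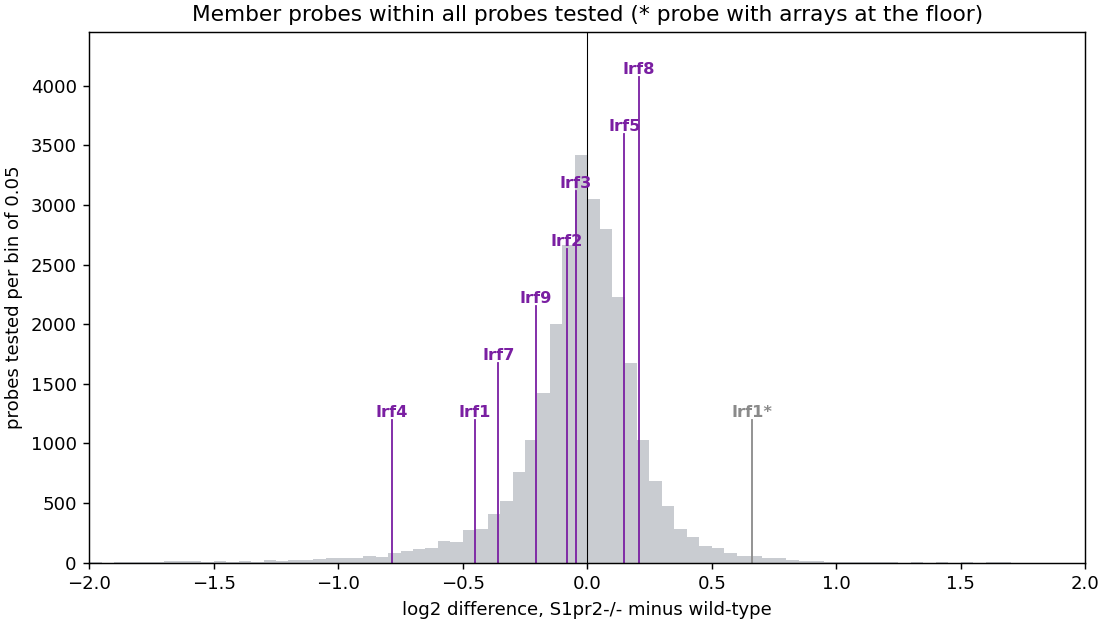
Grey bars count the 27161 probes tested in steps of 0.05 of the log2 difference, over the range from -2 to 2, and vertical lines mark the 9 member probes, with line heights set only to keep the names apart. Irf4 lies in the lower tail, where 1.98% of probes are lower, and most members lie near the centre.

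The genes around the family were read as lists of 1 probe a gene, which were chosen with earlier results of these data known. Over all 15432 genes, 5.95% were lower and 4.54% higher at an unadjusted p under 0.05, 21.9% lay below wild-type on both arrays and 22.1% above, the median difference was 0, and limma called 0 at an adjusted p under 0.05 in every list. Interferons and their receptors did not lean to a side, with 1 of 8 tested genes lower on both arrays, 3 higher and a median of -0.01. Ifng read -2.33 and -0.90 in wild-type and -3.02 and -2.87 in S1pr2-/- (difference -1.33, standard error 0.57), and the wild-type arrays lay far apart. Of 9 NK cell markers, which mark a source of Ifng beside T cells, 1 was lower on both arrays and 0 higher, and their summed signal was 7.88 and 14.5 in wild-type and 9.98 and 7.43 in S1pr2-/-. Their part in the Ifng values was not tested. The probes of Ifnb1 and Ifne were at the floor on all 4 arrays and were not tested. The receptor chains Ifnar1 (-0.01) and Ifngr1 (-0.02) were level between the genotypes and Il10rb was the highest of the list at 0.21.

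Among 14 Jak, Stat and IL-4 or IL-13 receptor genes, 8 were lower on both arrays and 2 higher, with a median of -0.17. Stat2, which acts with Irf9, had a difference of -0.33 (standard error 0.07), whereas Stat6, which acts beside Irf4 below IL-4, had 0.07. The extremes were Stat4 at -0.44 and Jak3 at 0.16. The 27 sensors, adaptors and kinases above Irf3, Irf5 and Irf7 were balanced, 7 lower and 8 higher on both arrays, with a median of 0.02, the RNA sensor Ddx58 lowest at -0.31 and Tlr3 highest at 0.30.

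Of 16 DNA-binding partners and co-factors, 5 were lower on both arrays and 0 higher, with a median of -0.09. Batf3, which pairs with Irf4 and Irf8, read 0.75 and 1.18 in wild-type and 0.17 and 0.09 in S1pr2-/-, a difference of -0.83 with a standard error of 0.18 (limma, adjusted p = 0.509). Batf, Spi1 and Irf2bp1 had differences of -0.11, 0.18 and 0.24.

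The genes that ISGF3 is known to switch on were mostly below wild-type. Of 26 tested, 24 were lower on both arrays and 0 higher, 14 passed an unadjusted p under 0.05 as lower and 0 as higher, and the median was -0.37 (between -0.40 and -0.34 with 1 array left out). Some genes, such as Stat2, are in this list as well as in that above, and Irf7 and Irf9 are not counted in it. Ifi44 was lowest at -0.81, on wild-type arrays that read -2.34 and -3.64, and Ifitm3 was highest at 0.38 with overlapping groups. The profile of Irf1 across the arrays, highest on wild-type replicate 2 and lower on both arrays labelled S1pr2-/-, was drawn beside these genes.

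**Figure D4:**
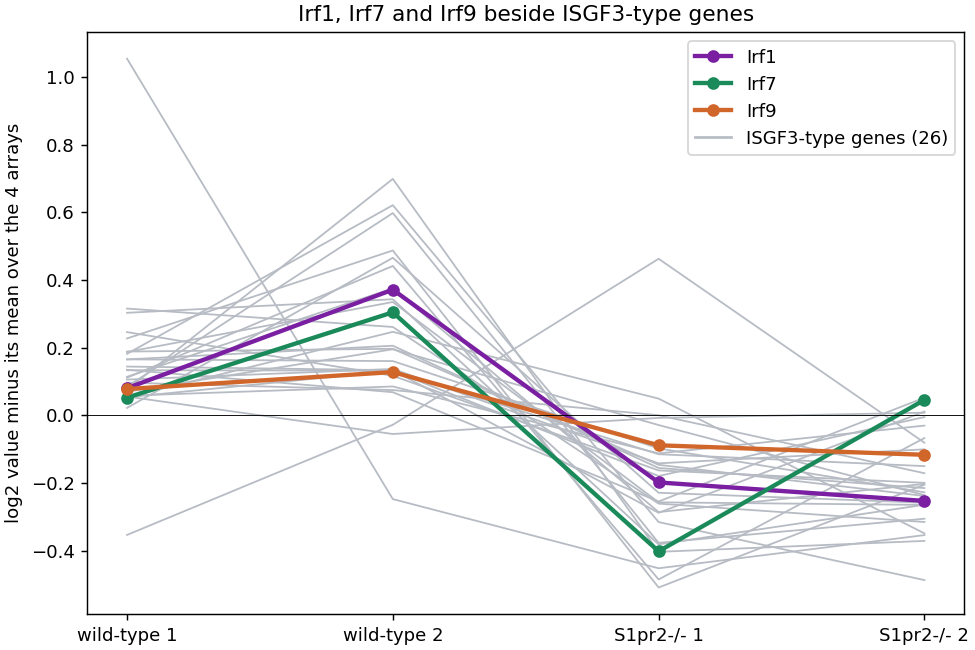
The vertical axis is each gene's log2 value minus its mean over the 4 arrays, the horizontal axis the 4 arrays, and lines join the values of a gene. Grey lines are the 26 ISGF3-type genes and colored lines Irf1, Irf7 and Irf9. Most lines lie above 0 on the wild-type arrays and below 0 on the others, and Irf7 returns to just above 0 on S1pr2-/- replicate 2.

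Genes that interferon gamma and Irf1 switch on were also mostly lower. Of 29, 18 were lower on both arrays and 2 higher, 6 passed an unadjusted p under 0.05 as lower and 0 as higher, and the median was -0.33. It was -0.18 without wild-type replicate 2 and -0.45 without wild-type replicate 1. The guanylate-binding protein Gbp4 was lowest at -1.07 (standard error 0.29) and the chemokine Cxcl9 was highest at 0.19.

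Of 20 alternative activation genes below IL-4, Stat6 and Irf4, 13 were lower on both arrays and 2 higher, 8 passed an unadjusted p under 0.05 as lower and 0 as higher, and the median was -0.50. It was -0.30 without wild-type replicate 2 and -0.70 without wild-type replicate 1. The study chose several of these on these same samples, so their count is not independent evidence of a direction. The eosinophil markers, with a median of -4.52, were lower on the same arrays, and Alox15 (-4.83) is counted in both lists. Their part in this list's values was not tested. Ccl24, an eotaxin, read 1.15 and 2.78 in wild-type and -5.83 and -6.64 (the floor) in S1pr2-/-, a difference of -8.20 with S1pr2-/- replicate 2 set to the floor. Pparg was highest at 0.21, and Kdm6b, a histone demethylase that acts above Irf4, had 0.16 with overlapping groups.

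Of 11 tested genes of classical activation, 6 were lower on both arrays and 0 higher, and 3 passed an unadjusted p under 0.05 as lower. The 11 were cytokine and chemokine genes with the enzyme genes Nos2 and Ptgs2. Il12a and Il23a were at the floor on all 4 arrays and were not tested, and Il12b had no named probe. The median was -0.40, while Irf5 itself had 0.15. The median was -0.20 without wild-type replicate 2 and -0.62 without wild-type replicate 1. Il6 was lowest at -1.73 (standard error 0.25) and Il18 highest at 0.18. Some of these were also among the genes the study chose. Of 8 tested neutrophil markers, 5 were lower on both arrays and 0 higher. Their median difference was -0.30, from Retnlg at -4.81 to Ltf at 0.36. The 9 neutrophil markers measured summed to 85.8 and 96.4 in wild-type and to 69.5 and 63.2 in S1pr2-/-, and Ngp was the marker not well above background anywhere. Their part in the values of the classical activation genes was not tested. The 17 Irf8 targets of phagocytes were even, 5 lower and 4 higher on both arrays, with a median of -0.03, from H2-DMb1 at -0.31 to Cybb at 0.35. The small medians moved with 1 array left out. That of the Irf8 targets was 0.02 without wild-type replicate 2 and -0.09 without wild-type replicate 1, and that of the sensors was -0.05 without wild-type replicate 2. That of the interferons and receptors was 0.12 without S1pr2-/- replicate 2, and 0.09 once wild-type replicate 1 was left out. Without S1pr2-/- replicate 1, those of the Jak and Stat genes and of the partners were -0.11 and -0.05.

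**Figure D5:**
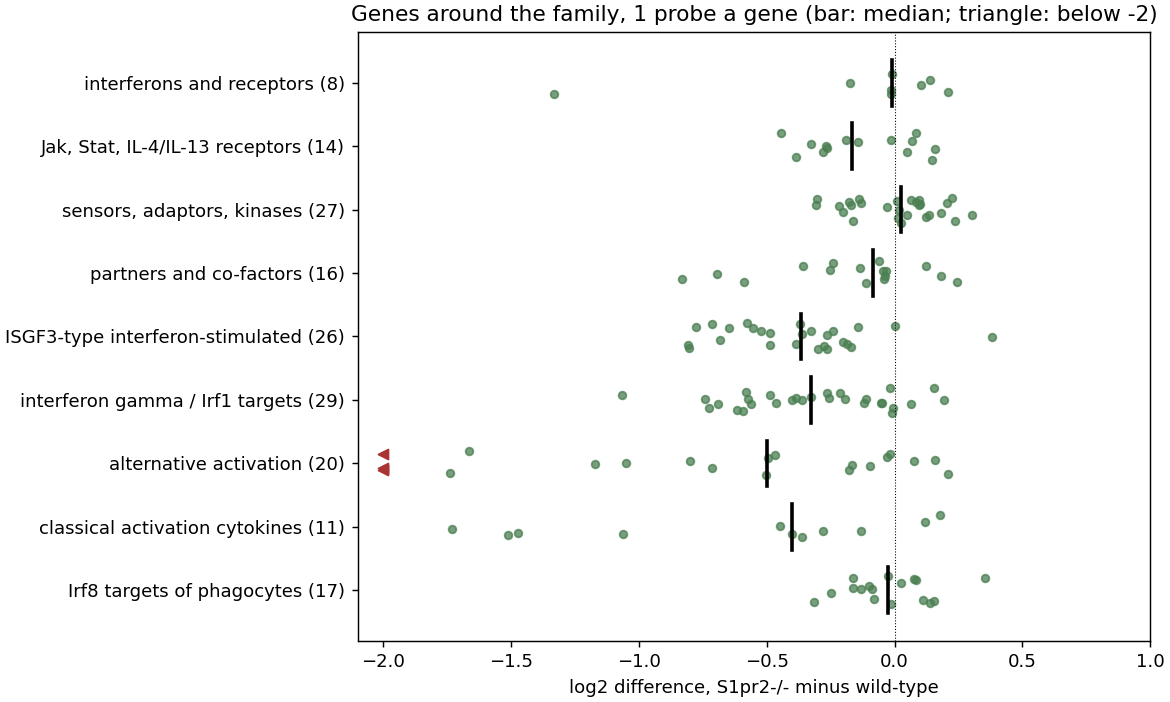
The horizontal axis is the log2 difference, S1pr2-/- minus wild-type, and each row is a list with its number of tested genes. Points are genes, black bars medians and triangles genes below -2 drawn at -2. The medians of the ISGF3-type list (-0.37) and of the interferon gamma list (-0.33) lie below 0, and those of the sensors (0.02) and of the Irf8 targets (-0.03) lie near it.

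The genes whose 4 array values were most like those of a member were found by the Euclidean distance between log2 values, each centred on its mean over the 4 arrays. For Irf4 the nearest were Tnip3 (distance 0.0757), Macc1 (0.0812), Clec4b2 (0.0917), Bend7 (0.104, at the floor on both S1pr2-/- arrays) and the ISGF3-type gene Cmpk2 (0.105), each with a difference between -0.80 and -0.75. For Irf1, the other member with the largest difference, they included Lrrk2 (0.0308), A4galt (0.0404), Mkx (0.0437) and Epn2 (0.0489), with differences between -0.47 and -0.41. With 4 arrays, such likeness is a description of the rank and spacing of the same 4 values.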

How the data were processed

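RNA of BALF cells from bleomycin-administered mice was measured on 4 one-color Agilent whole mouse genome arrays, 2 wild-type and 2 S1pr2-/-, on 1 slide with 1 scan. The authors deposited spot intensity tables from Feature Extraction (version 10.7.3.1 in the submitters' notes, 11.0.1.1 in the file headers), whose processed signal is background-corrected. The authors also deposited normalized log2 values of the same arrays, used here as an alternative. Here each processed signal was scaled to the 75th percentile of its array, floored at 0.01 and taken to log2. Spots with outlier flags were left out, and spots of a probe were averaged. Probes with a value on each array, detected (well above background) in both replicates of some genotype, were tested by lmFit and eBayes (limma 3.58.1, R 4.3.3), with Benjamini-Hochberg adjustment over all 27161. Names came from RefSeq accessions and covered 69.6% of probes. The array design and the RefSeq table (GRCm38.p6) use different builds, so coordinates are given only for RefSeq promoters. The test was checked on simulated data.

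Members and gene lists were chosen with earlier results of these data known. Named genes are all member probes, the lowest and highest gene of each list, 11 further genes of those lists, and the 5 genes nearest to Irf4 and to Irf1. Not all of these genes are reported here. For a gene with several probes, lists use the brightest. Samples were grouped by the genotype in the labels. The alternatives were quantile normalization, the percentile over detected probes, normexp with an offset of 50, the authors' log2 values, leaving out the floor, leaving out the filter, a stricter filter (detected on all arrays), keeping flagged spots, a trended prior, the methods' t-test, the replicate block and each array left out. Normexp used the median signal, since a mean signal was not among the columns used, and was fitted on non-control spots: the fit on all spots gave S1pr2-/- replicate 1 a first percentile of 487, against 58.5 to 59.9 on the others. The number of arrays limits the precision. Replicate numbers shared by the genotypes came with a correlation of deviations of 0.187.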

Additional observations from a re-analysis of the deposited data

How the results depend on the processing

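No alternative called a member probe at an adjusted p under 0.05, and over all probes normexp called 2 where the other settings called 0. At an unadjusted p under 0.05 the lower member probes were 2 (Irf1 and Irf9) as reported, and 1 with the percentile over probes detected on all arrays, without the filter on dim probes and with the methods' t-test (Irf9 each time). They were 0 to 2 with 1 array left out (0 without either S1pr2-/- array), and the higher ones 0 to 1 (the dim Irf1 probe without S1pr2-/- replicate 1). Normexp, the authors' log2 values, no floor and only detected probes each gave 2, namely Irf1 and Irf4, and the trended prior gave 3. With the replicate number as a block, 1 probe was lower (Irf7, -0.36), and neither Irf1 nor Irf9 was. The numbers are shared only by name, with 2 pairs and a correlation of deviations of 0.187. The Irf4 difference was -1.10 to -0.46 with 1 array left out and -0.79 to -0.75 otherwise, with an adjusted p of 0.479 to 0.755 (limma and the methods' t-test). The sign turned for Irf3 without S1pr2-/- replicate 1 (0.00808, with -0.0992 as the lowest with 1 array left out) and for the dim Irf1 probe without S1pr2-/- replicate 2 (-0.035, with 1.36 as the highest). That probe had no difference with the percentile over detected probes, where it was at the floor on all arrays, and was not among those detected on all arrays. Over all probes, those higher at an unadjusted p under 0.05 were 1083 as reported, 1752 under quantile normalization, 1664 with the percentile over detected probes and 627 without wild-type replicate 2. A slide block was not run, since all arrays lie on 1 slide. Leaving out an array assumes that the lone array of its genotype varies like the others. The cause of these changes was not tested. Low signal limits the second Irf1 probe, which was well above background on 3 of 4 arrays.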
